A study of Mus musculus with 4 samples.

Results

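The genes described here are 35 marker genes of excitatory neurons of the hippocampus, the cell class in which CaMKII-Cre deletes Ipmk. They were taken as a fixed list of gene symbols, each read by its brightest probe set over the arrays, and all 35 were found among the 33793 probe sets of the array. They fall into 9 genes of the dentate gyrus, 8 of CA1, 9 of CA2 and CA3, and 9 that mark hippocampal or forebrain excitatory neurons more generally.

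Male mice were killed at postnatal day 90, and RNA of their right hippocampi was hybridised to Affymetrix Mouse Gene 2.0 ST arrays, 1 mouse per array. The 2 arrays labelled IPMK cKO came from mice with both Ipmk alleles floxed and the CaMKII-Cre transgene, and the 2 arrays labelled IPMK WT from littermates with the same floxed alleles and no Cre. The mice were behaviourally naive. The tissue was whole hippocampus, so the neurons in which the transgene is active were measured together with interneurons, glia and vessels, and fewer cells of a type cannot be told apart from less RNA per cell. All values are log2 signals normalised by RMA (robust multi-array average), and a difference is always the mean of the arrays labelled IPMK cKO minus that of the arrays labelled IPMK WT. Values of the 2 arrays of a group are given with replicate 1 first.

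Ipmk itself went against the labels. Its brighter probe set, on chromosome 10, read 8.44 and 8.78 in the arrays labelled IPMK cKO. It read 7.68 and 7.71 in the arrays labelled IPMK WT. The log2 difference was 0.92 (standard error 0.15, 95% confidence interval 0.54 to 1.29). In limma the unadjusted p was 0.0012 and the adjusted p 0.9999. The dimmer probe set of Ipmk, annotated from 71409363 to 71433327, starts beyond the end of the brighter at 71385885. Whether that range lies within the gene was not checked. The dimmer probe set read 6.97 and 6.43 in the arrays labelled IPMK cKO, against 5.78 and 5.52 in those labelled IPMK WT. Its log2 difference was 1.05 (standard error 0.21, 95% confidence interval 0.52 to 1.58). Its unadjusted p in limma was 0.0030 and its adjusted p 0.9999. Whether the probes lie in the deleted part of the gene is not given in the sources used here, and every direction below is that of the array labels.

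Excitatory neurons of the hippocampus form a circuit in which granule cells of the dentate gyrus contact CA3 pyramidal cells through mossy fibres, CA3 cells contact CA1, and CA2 lies between CA3 and CA1. Each subfield keeps its own set of expressed genes into adulthood, and several such genes also differ between the dorsal and the ventral end of the hippocampus. CaMKII-Cre transgenes recombine floxed genes in forebrain excitatory neurons, for the most part after birth.

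By the test used, 0 of the 35 marker genes changed with the label. In limma 0 had an adjusted p under 0.05; this model tests each probe set with a variance moderated by that of all others, and each had an adjusted p of 0.9999. At an unadjusted p under 0.05, 0 of the 35 passed as well, where 2.86% of all probe sets did, and after adjustment 0% of all probe sets passed. The median log2 difference was -0.028 over the 35 genes and -0.0046 over all probe sets. In 23 of the 35 genes the mean of the arrays labelled IPMK cKO was the lower, as it was in 51.6% of all probe sets. For 27 of the 35 genes, the 95% confidence interval of the difference lay within 1.5-fold in both directions. It did so for 25428 of all 33793 probe sets, a similar share. The 8 genes with a wider interval were Tdo2, Dsp, Spink8, Dcn, Nov, Bok, Emx1 and Meis2. All p-values rest on the spread between 2 mice per label. On simulated data the same fit recovered 13.3% of changes of 2-fold, so most changes of that size would be missed. With 2 arrays against 2, an exact permutation test cannot give a p under 0.333.

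**Figure D1:**
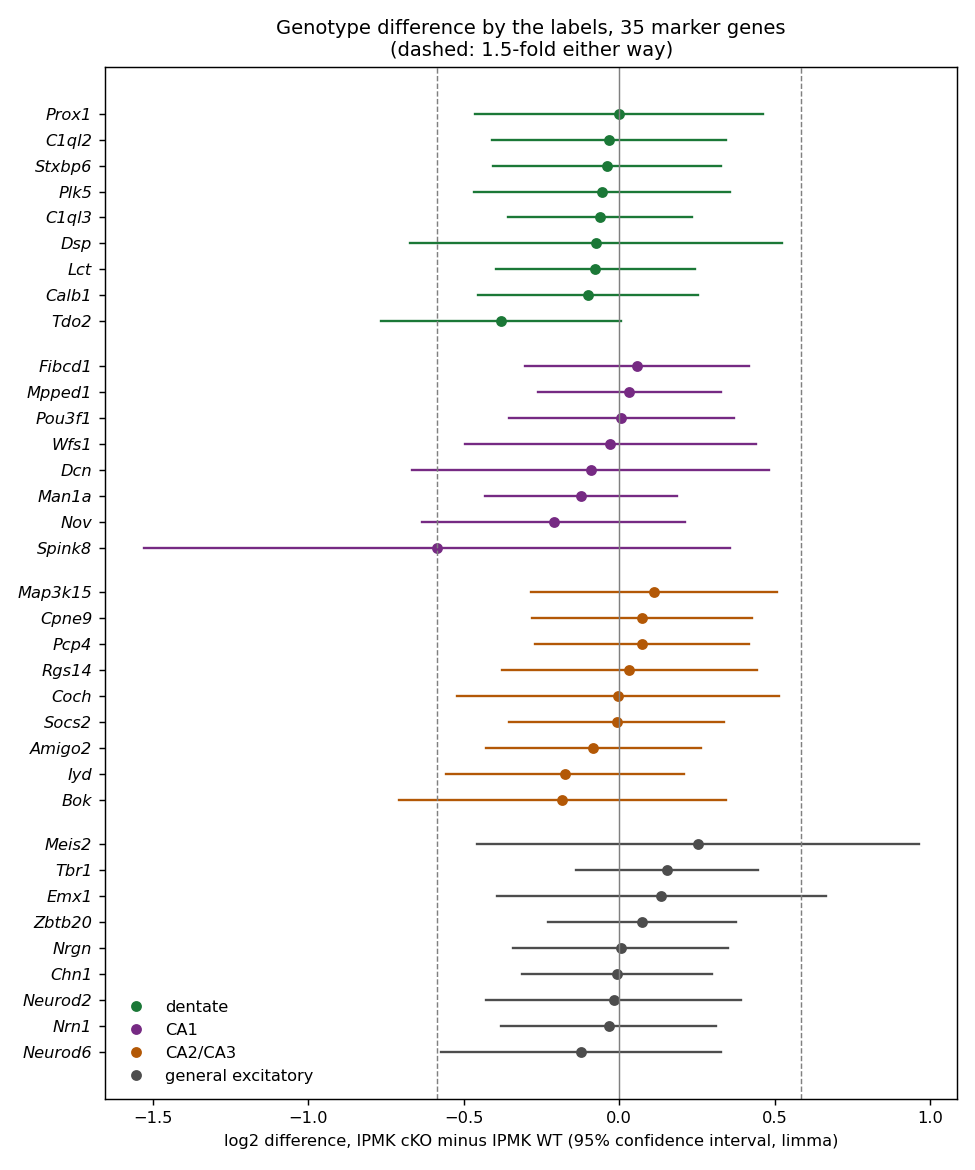
Log2 difference (arrays labelled IPMK cKO minus those labelled IPMK WT) for each of the 35 marker genes, with its 95% confidence interval from limma on the horizontal axis and genes grouped by subfield on the vertical axis; dashed lines mark 1.5-fold in each direction. All 35 intervals include 0, and Spink8 had the lowest difference (-0.59) and the widest interval (-1.53 to 0.36).

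The groups of arrays did not overlap in only 4 of the 35 genes. Both arrays labelled IPMK cKO lay below both labelled IPMK WT in Tdo2 and Man1a, where 14.8% of all probe sets did so. Both lay above in Tbr1 and Zbtb20, where 12.4% of all probe sets did so. The difference between group means was larger than the wider of the 2 replicate gaps in 3 of the 35 genes, namely Tdo2, Man1a and Tbr1, and in 16.8% of all probe sets. In the other 32 genes, 2 mice of the same label differed by at least as much as the group means did. These gaps include any shift shared by the arrays of the same replicate number.

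Granule cells of the dentate gyrus were read by 9 genes, of which all 9 averaged lower in the arrays labelled IPMK cKO and 0 passed the test. Of all probe sets, 51.6% averaged lower. The median log2 difference of the 9 genes was -0.063, and without Tdo2 the differences lay between -0.10 and -0.0018. A list of 8 further dentate genes did not repeat the direction, with 4 higher, 4 lower and a median of -0.018. Both lists were chosen with earlier results of these data known, so the further list is no independent check. The median of the 9 genes turned to 0.014 without replicate 2 labelled IPMK cKO and to 0.039 without replicate 1 labelled IPMK WT. It was -0.17 without replicate 1 labelled IPMK cKO and -0.15 without replicate 2 labelled IPMK WT. Leaving out an array also leaves the labels unequal in replicate number, by which 5 of the 9 genes separated, with both replicate 2 arrays lower. Of all probe sets, 22.7% separated in that direction and 22% in the other. Tdo2, which encodes the tryptophan dioxygenase and is a gene of mature granule cells, read 5.02 and 4.68 in the arrays labelled IPMK cKO, against 5.20 and 5.26 in the arrays labelled IPMK WT. Both arrays labelled IPMK cKO were low, and replicate 2 of them the lower. The log2 difference of Tdo2 was -0.38 (standard error 0.16, 95% confidence interval -0.77 to 0.007). Its signal was modest, with a mean of 5.04 where the median of all probe sets lay between 5.10 and 5.15 on the 4 arrays. The difference of Tdo2 was -0.55 without replicate 1 labelled IPMK cKO and -0.21 without replicate 2 of that label.

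Prox1, the homeobox factor that sets and keeps granule cell identity, read 8.42 and 7.95 in the arrays labelled IPMK cKO, against 8.27 and 8.10 in the arrays labelled IPMK WT. The 2 arrays labelled IPMK cKO lay on either side of both others, and the difference of the means was -0.0018 (standard error 0.19). Dsp, which encodes the desmosomal protein desmoplakin, read 7.17 and 6.49 in the arrays labelled IPMK cKO, against 7.02 and 6.79 in the arrays labelled IPMK WT. As with Prox1, replicate 1 of the arrays labelled IPMK cKO was the highest of the 4 and replicate 2 the lowest. The mean of Dsp was 6.83 ± 0.48 for the label IPMK cKO and 6.91 ± 0.16 for the label IPMK WT (SD, n = 2 each).

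Calb1, the calcium buffer calbindin, which is made by granule cells and also by part of CA1, read 9.05 and 8.77 in the arrays labelled IPMK cKO, against 8.98 and 9.05 in the arrays labelled IPMK WT. Only replicate 2 of the arrays labelled IPMK cKO was low. Lct, the lactase gene, which marks granule cells of the dorsal dentate gyrus, read 7.13 and 6.95 in the arrays labelled IPMK cKO, against 7.15 and 7.08 in the arrays labelled IPMK WT, with the same array lowest. The log2 difference was -0.10 for Calb1 and -0.077 for Lct, each with a 95% confidence interval within 1.5-fold.

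C1ql2 and C1ql3 encode secreted C1q-like proteins that granule cells place at mossy fibre synapses. They spanned 0.29 and 0.13 over the 4 arrays, and their differences were -0.032 and -0.063. Stxbp6, which encodes the SNARE-binding protein amisyn, had a difference of -0.038. Plk5, a gene of the polo-like kinase family, had one of -0.054. In C1ql2 and Plk5 the lowest array was replicate 2 of those labelled IPMK WT, while in the other 7 dentate genes it was replicate 2 of those labelled IPMK cKO. That array was the lowest in 29.4% of all probe sets.

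**Figure D2:**
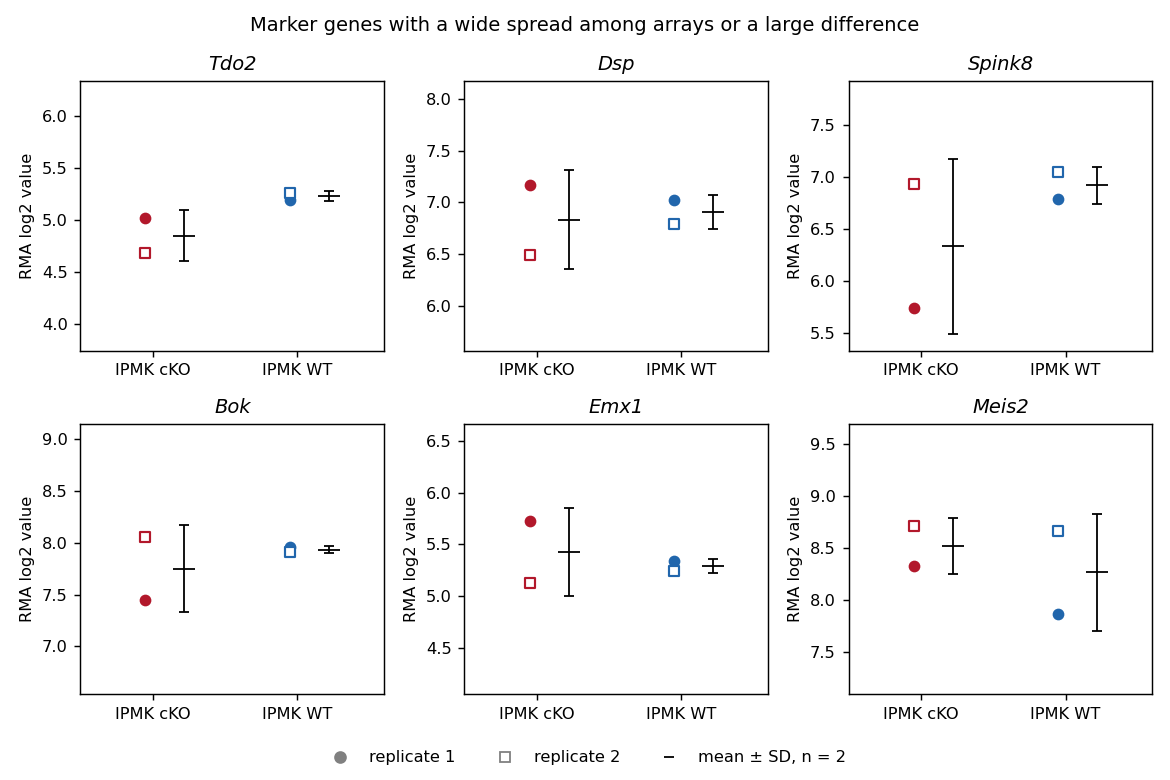
RMA log2 values of 6 marker genes in each array (points; circles replicate 1, squares replicate 2; 1 mouse each) with the mean ± SD of the 2 arrays labelled IPMK cKO (left) and IPMK WT (right); each panel spans the same log2 range. Tdo2 read lower in both arrays labelled IPMK cKO (5.02 and 4.68) than in both labelled IPMK WT (5.20 and 5.26), whereas Spink8 and Bok were low in only 1 array.

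Pyramidal cells of CA1 were read by 8 genes with a median log2 difference of -0.059, 3 of them averaging higher and 5 lower in the arrays labelled IPMK cKO. The median was -0.15 without replicate 2 labelled IPMK WT and -0.0055 without replicate 2 labelled IPMK cKO. Spink8, a gene for a Kazal-type serine protease inhibitor that marks pyramidal cells, had the largest difference of all 35 genes and the least even one. Its probe set lies on chromosome 9 from 109812280 to 109826633 in the annotation of the array, which names no genome build. It read 5.73 and 6.93 in the arrays labelled IPMK cKO, against 6.79 and 7.05 in the arrays labelled IPMK WT. Replicate 1 of the arrays labelled IPMK cKO stood 1.06 below the next array, and the other 3 arrays lay within 0.255 of each other. The log2 difference was -0.59 (standard error 0.38, 95% confidence interval -1.53 to 0.36). It was 0.0097 without replicate 1 labelled IPMK cKO and -1.18 without replicate 2 labelled IPMK cKO.

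Man1a, a Golgi mannosidase gene, read 8.14 and 8.26 in the arrays labelled IPMK cKO, against 8.37 and 8.27 in the arrays labelled IPMK WT, a log2 difference of -0.12 (standard error 0.12). The groups did not overlap, but the nearest arrays of the 2 groups lay close together. Nov, named Ccn3 in current annotation and encoding a matricellular protein, read 8.998 and 8.635 in the arrays labelled IPMK cKO, against 9.136 and 8.918 in the arrays labelled IPMK WT. Its difference was -0.21 (standard error 0.17), and replicate 2 of the arrays labelled IPMK cKO was the lowest.

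Dcn, which encodes the proteoglycan decorin and is a gene of ventral CA1, read 8.97 and 8.75 in the arrays labelled IPMK cKO, against 9.27 and 8.63 in the arrays labelled IPMK WT. The widest gap was between the 2 arrays labelled IPMK WT, at 0.64, and the difference between the groups was -0.091. Decorin is also a product of fibroblasts of the meninges and vessels. A list of 6 fibroblast genes, Dcn not among them, had a median deviation from each gene's own mean of 0.13 and -0.26 in the arrays labelled IPMK cKO, against 0.29 and -0.28 in the arrays labelled IPMK WT. The order of the arrays by that list was the same as by Dcn, and the part of fibroblasts in the values of Dcn was not tested.

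Wfs1, the endoplasmic reticulum protein wolframin and a gene of dorsal CA1, read 9.54 and 9.14 in the arrays labelled IPMK cKO, against 9.21 and 9.52 in the arrays labelled IPMK WT, so that the arrays labelled IPMK cKO enclosed the others. Mpped1, a metallophosphoesterase gene, had the narrowest span of the 35 genes, 0.085 over the 4 arrays. Fibcd1, a gene for a membrane protein with a fibrinogen domain, had a difference of 0.058, and the POU homeobox gene Pou3f1 one of 0.0065. For Wfs1, Fibcd1, Mpped1, Pou3f1 and Man1a the 95% confidence interval lay within 1.5-fold.

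Pyramidal cells of CA2 and CA3 were read by 9 genes, with a median log2 difference of -0.0037 and 4 higher and 5 lower means in the arrays labelled IPMK cKO. The median turned to 0.047 without replicate 2 labelled IPMK cKO and was -0.11 without replicate 2 labelled IPMK WT. In 0 of the 9 genes did the arrays separate by label, where 12.4% of all probe sets did so upward and 14.8% downward. Bok, a gene of the Bcl-2 family that is strong in CA3, read 7.45 and 8.05 in the arrays labelled IPMK cKO, against 7.96 and 7.91 in the arrays labelled IPMK WT. Replicate 1 of the arrays labelled IPMK cKO stood 0.46 below the next array, and replicate 2 was the highest of the 4. The difference turned to 0.12 without replicate 1 labelled IPMK cKO and was -0.48 without replicate 2 of that label. Iyd, the iodotyrosine deiodinase gene, which marks dorsal CA3, read 4.93 and 5.24 in the arrays labelled IPMK cKO, against 5.33 and 5.19 in the arrays labelled IPMK WT. Here too replicate 1 of the arrays labelled IPMK cKO was the lowest, by 0.26. The differences were -0.18 for Bok (standard error 0.21) and -0.17 for Iyd (standard error 0.15).

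Coch, the gene for the extracellular protein cochlin and a marker of ventral CA3, read 6.65 and 6.92 in the arrays labelled IPMK cKO, against 7.05 and 6.53 in the arrays labelled IPMK WT. The arrays labelled IPMK WT held both the highest and the lowest value, and the difference was -0.0037. Map3k15, a kinase gene of CA2, read 5.46 and 5.13 in the arrays labelled IPMK cKO, against 5.28 and 5.09 in the arrays labelled IPMK WT, a difference of 0.11 (standard error 0.16). Replicate 1 of each group was the higher array.

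The remaining genes of CA2 and CA3 differed little between the labels and passed no test. Rgs14, which restrains synaptic plasticity in CA2, had a difference of 0.033, Amigo2, a leucine-rich repeat adhesion molecule of CA2, of -0.083, and Pcp4, a calmodulin-binding peptide of CA2, of 0.072. The copine gene Cpne9 had a difference of 0.074 and Socs2, a suppressor of cytokine signalling, of -0.0075. Their spans over the 4 arrays lay between 0.25 and 0.32. In 8 of the 9 genes of CA2 and CA3, all but Bok, the 95% confidence interval of the difference lay within 1.5-fold.

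The 9 general excitatory genes had a median log2 difference of 0.0051, with 5 higher and 4 lower means in the arrays labelled IPMK cKO. The median was -0.11 without replicate 1 labelled IPMK cKO and 0.080 without replicate 2 labelled IPMK cKO. Tbr1, a T-box factor of glutamatergic neurons, read 6.92 and 6.86 in the arrays labelled IPMK cKO, against 6.75 and 6.72 in the arrays labelled IPMK WT. The groups did not overlap and each was tight, with SDs of 0.046 and 0.026, and the log2 difference was 0.15 (standard error 0.12, 95% confidence interval -0.14 to 0.45). Zbtb20, a zinc finger factor of hippocampal pyramidal identity that astrocytes also make, also read above both others in the 2 arrays labelled IPMK cKO, the difference being 0.072. The separation was marginal, since replicate 2 labelled IPMK cKO and replicate 1 labelled IPMK WT both read 9.20.

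Emx1, the homeobox gene of the dorsal forebrain, read 5.73 and 5.13 in the arrays labelled IPMK cKO, against 5.34 and 5.24 in the arrays labelled IPMK WT. The arrays labelled IPMK cKO enclosed the others, and the difference was 0.14 (standard error 0.21). It turned to -0.16 without replicate 1 labelled IPMK cKO and was 0.43 without replicate 2 of that label. Neurod6, a basic helix-loop-helix factor of pyramidal cells, read 8.89 and 8.56 in the arrays labelled IPMK cKO, against 9.02 and 8.68 in the arrays labelled IPMK WT, with replicate 1 the higher in each group. Its relative Neurod2 spanned 0.32 over the 4 arrays, with a difference of -0.017.

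Meis2, a homeobox gene of the TALE class, had the largest positive difference of the 35 genes at 0.25 (standard error 0.29). It is the only member with 2 probe sets. The brighter, on the minus strand of chromosome 2 from 115861264 to 116065839, read 8.33 and 8.71 in the arrays labelled IPMK cKO, against 7.87 and 8.66 in the arrays labelled IPMK WT. Replicate 1 of the arrays labelled IPMK WT stood 0.46 below the next array. The difference turned to -0.15 without that array, and was 0.65 without replicate 2 labelled IPMK WT. The dimmer probe set, whose range starts beyond that of the brighter, read 5.48 and 5.40 in the arrays labelled IPMK cKO, against 5.26 and 5.70 in the arrays labelled IPMK WT. The 2 probe sets differed in sign, 0.25 against -0.036, and shared only the lowest array.

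Nrgn, which encodes the calmodulin-binding protein neurogranin, Chn1, a Rac GTPase-activating protein gene, and Nrn1, the activity-regulated gene of neuritin, are abundant transcripts of excitatory neurons. Their differences were 0.0051, -0.0058 and -0.033, with standard errors between 0.12 and 0.14. Replicate 2 of the arrays labelled IPMK cKO was the lowest and replicate 1 the highest of the 4 in each of them.

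**Figure D3:**
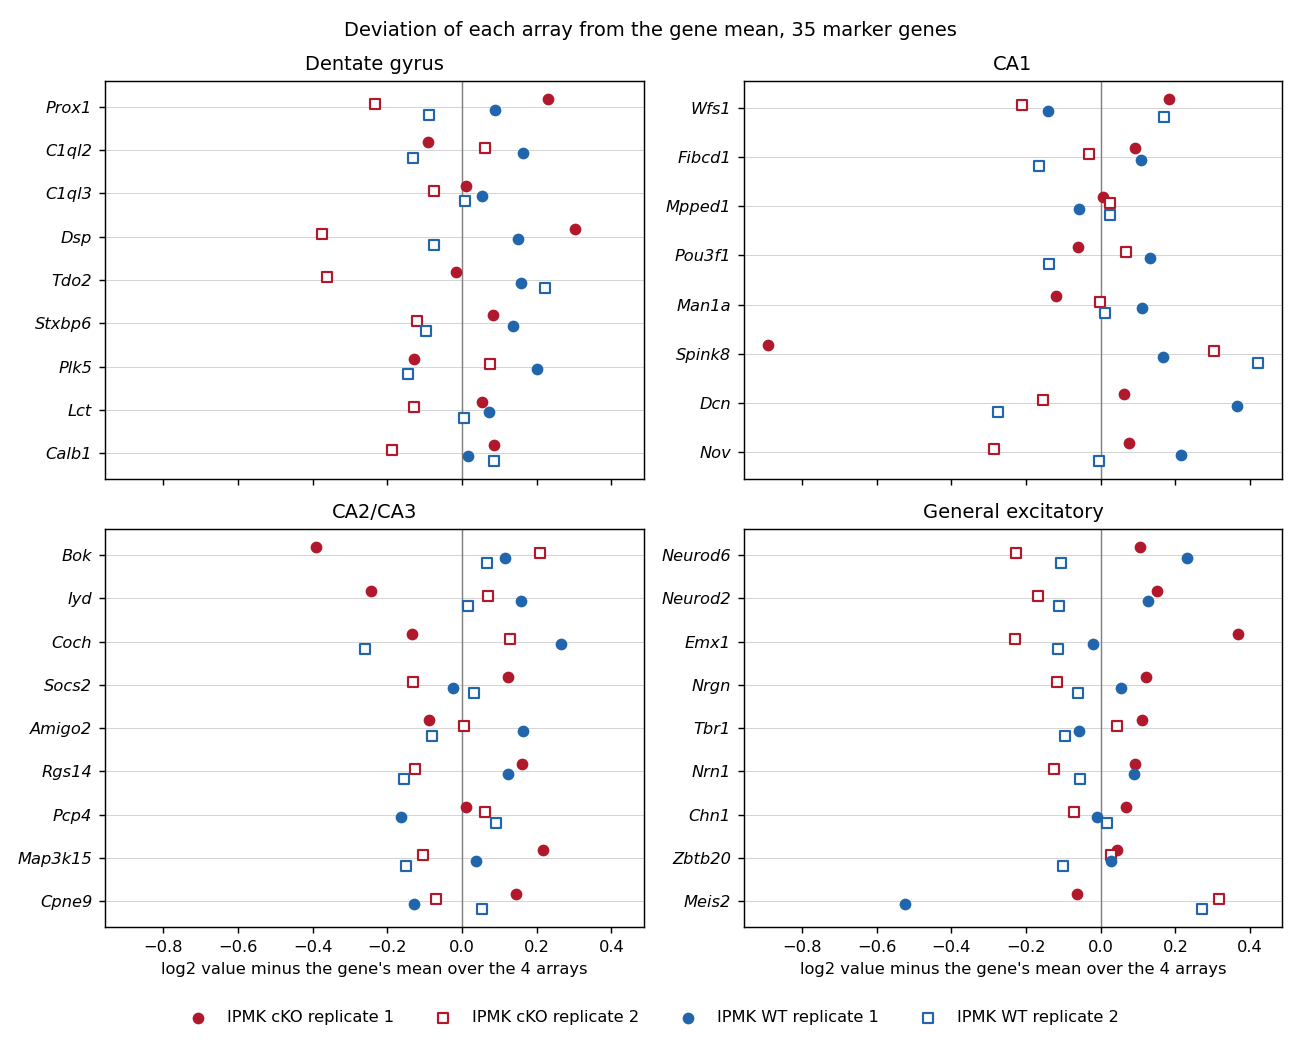
Each array's log2 value minus the gene's mean over the 4 arrays (horizontal axis) for the 35 marker genes (vertical axis), in 4 panels by subfield; red marks the arrays labelled IPMK cKO, blue those labelled IPMK WT, filled circles replicate 1 and open squares replicate 2. Spink8, Bok and Iyd stand low in replicate 1 labelled IPMK cKO, and many dentate and general excitatory genes lie lower in both replicate 2 arrays.

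More genes separated the arrays by replicate number than by label. Both replicate 2 arrays lay below both replicate 1 arrays in 15 of the 35 genes, where 22.7% of all probe sets did so. These were 5 dentate genes (Prox1, C1ql3, Dsp, Stxbp6 and Lct), 3 of CA1 (Fibcd1, Dcn and Nov), 2 of CA2 and CA3 (Rgs14 and Map3k15) and 5 general excitatory genes (Neurod6, Neurod2, Emx1, Nrgn and Nrn1). Both replicate 2 arrays lay above both replicate 1 arrays in 4 of the 35 genes (Mpped1, Spink8, Pcp4 and Meis2), where 22% of all probe sets did so. The replicate number names a mouse within its group and is not a treatment or a stated batch. Markers of astrocytes, microglia and oligodendrocytes lay on the other side. The median deviation of 10 astrocyte genes was -0.21 and 0.26 in the arrays labelled IPMK cKO, against -0.26 and 0.19 in the arrays labelled IPMK WT. That of 9 microglia genes was -0.28 and 0.19 in the arrays labelled IPMK cKO, against -0.15 and 0.18 in the arrays labelled IPMK WT. For 9 oligodendrocyte genes it was -0.11 and 0.097 in the arrays labelled IPMK cKO, against -0.084 and 0.15 in the others. For 7 genes of all neurons it was 0.090 and -0.074 in the arrays labelled IPMK cKO, against 0.027 and -0.056 in the arrays labelled IPMK WT. The 6 fibroblast genes lay on the side of the neurons. Their values were 0.13 and -0.26 in the arrays labelled IPMK cKO, against 0.29 and -0.28 in the others. Not every list followed the replicate number. In 8 further dentate genes it was -0.036 and -0.020 in the arrays labelled IPMK cKO, against 0.040 and -0.0081 in the others. In 3 oligodendrocyte precursor genes it was -0.084 and 0.092 in the arrays labelled IPMK cKO, against 0.034 and -0.071 in the others. The part of glia in the values of the marker genes was not tested.

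**Figure D4:**
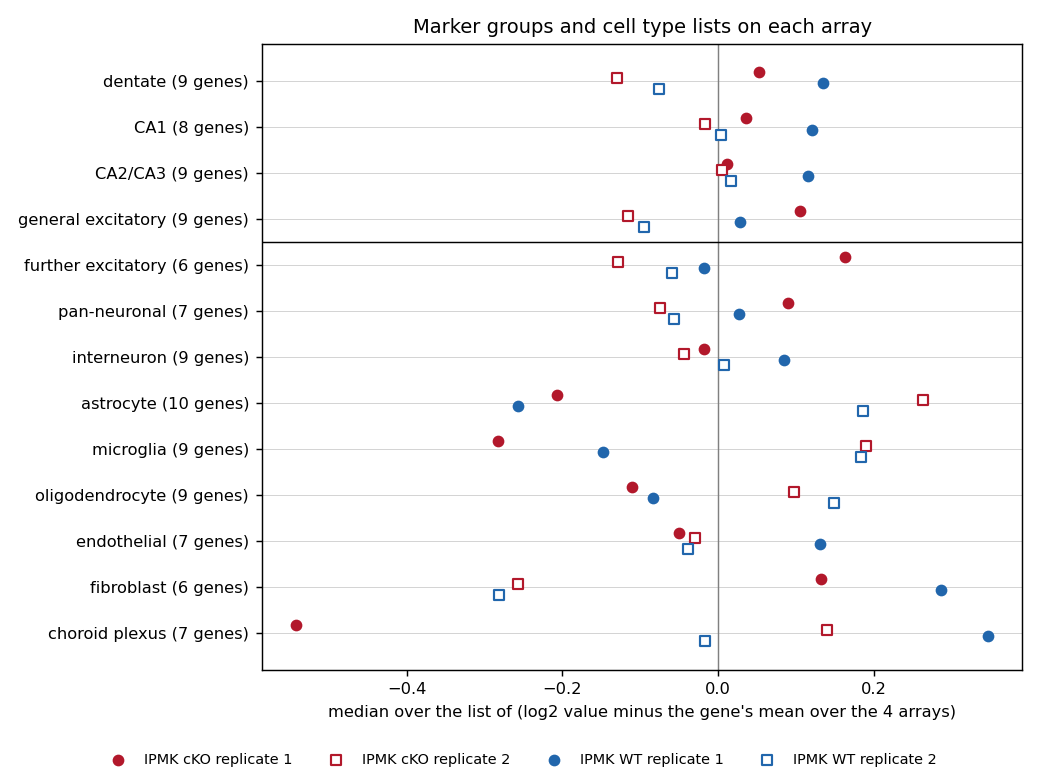
Median, over the genes of a list, of each array's log2 value minus the gene's mean over the 4 arrays (horizontal axis), for the 4 marker groups (above the line) and 9 other lists (vertical axis, with the number of genes); red marks arrays labelled IPMK cKO, blue IPMK WT, circles replicate 1 and squares replicate 2. Astrocyte genes lay at -0.21 and -0.26 in both replicate 1 arrays and at 0.26 and 0.19 in both replicate 2 arrays, while dentate genes lay at 0.053 and 0.14 in the replicate 1 arrays and at -0.13 and -0.076 in the replicate 2 arrays.

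The subfields were also read against each other within an array. The median deviation of the dentate genes was 0.053 and -0.13 in the arrays labelled IPMK cKO, against 0.14 and -0.076 in the arrays labelled IPMK WT. That of the CA1 genes was 0.035 and -0.017 in the arrays labelled IPMK cKO, against 0.12 and 0.0033 in the arrays labelled IPMK WT. Dentate minus CA1 was 0.017 and -0.11 in the arrays labelled IPMK cKO, against 0.014 and -0.079 in the arrays labelled IPMK WT, so the arrays labelled IPMK cKO enclosed the others. Dentate minus CA2 and CA3 was 0.041 and -0.13 in the arrays labelled IPMK cKO, against 0.020 and -0.092 in the arrays labelled IPMK WT. CA1 minus CA2 and CA3 was 0.024 and -0.023 in the arrays labelled IPMK cKO, against 0.0057 and -0.013 in the arrays labelled IPMK WT. Dentate minus general excitatory genes was -0.053 and -0.014 in the arrays labelled IPMK cKO, against 0.11 and 0.019 in the arrays labelled IPMK WT. Of these 4 contrasts only the last put both arrays labelled IPMK cKO below both others, and it was not tested.

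Markers of the 2 ends of the hippocampus did not separate the arrays by label either. Lct, Wfs1 and Iyd mark the dorsal end, and Dcn, Coch and the thyrotropin-releasing hormone receptor gene Trhr, which is not among the 35, the ventral end. The median deviation of the dorsal genes minus that of the ventral genes was 0.14 and -0.045 in the arrays labelled IPMK cKO, against -0.19 and 0.28 in the arrays labelled IPMK WT. The arrays labelled IPMK WT enclosed both arrays labelled IPMK cKO. The ventral genes disagreed among themselves. Dcn and Coch were highest in replicate 1 labelled IPMK WT and lowest in replicate 2 of that label. Trhr was the reverse, at 5.72 and 6.12 in those arrays. Dcn also had the array order of the fibroblast list. The ventral median is therefore no clear reading of that end.

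Further genes of the same neurons, set down as lists beside the 35, were read in the same way. Of 34 such genes, 20 averaged higher and 14 lower in the arrays labelled IPMK cKO, the median log2 difference was 0.0028, and 0 passed limma before or after adjustment. The groups did not overlap in 6 of them, 3 higher and 3 lower, where 12.4% of all probe sets were higher and 14.8% lower without overlap. Among 8 further dentate genes the lowest p was that of Maml2, a Notch coactivator gene, with 7.42 and 7.60 in the arrays labelled IPMK cKO, against 7.87 and 7.67 in the arrays labelled IPMK WT. Among 17 further genes of CA2 and CA3 it was that of the neurotrophin gene Ntf3, with 5.14 and 4.96 in the arrays labelled IPMK cKO, against 5.39 and 5.28 in the arrays labelled IPMK WT. Slc17a7, the vesicular glutamate transporter of these neurons, had a difference of 0.013 and Camk2a, a kinase subunit of their synapses, of -0.022, each smaller than the gap between replicates.

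Each of the 35 probe sets is marked as unique in the annotation, and each overlaps its gene in the GRCm38.p6 gene table. All 35 averaged at least 5.04 on the log2 scale, where 29.1% of all probe sets averaged under 4. No detection call was made. Prox1, Wfs1, Rgs14 and Neurod6, markers of dentate, CA1, CA2 and pyramidal neurons, lay between 7.72 and 9.54 throughout. Other members were dim. Tdo2 averaged 5.04, Iyd 5.17, Map3k15 5.24, Socs2 5.35 and Emx1 5.36, near the medians of the arrays, 5.10 to 5.15. For these genes, presence on the arrays is not shown.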

How the data were processed

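Right hippocampi were profiled on 4 Affymetrix Mouse Gene 2.0 ST arrays. Of these, 2 were labelled IPMK cKO and 2 IPMK WT. The deposited log2 values were made by the authors, who extracted the scans with Command Console and summarised and normalised them per gene by RMA in Expression Console, so that every array had nearly the same distribution. The authors' own comparison columns (fold changes and local pooled error p-values) and 4 other per-array columns were not used. Rows with a blank probe set name were left out. The probe annotation's genome build is not given in the sources used here.

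Here the 33793 probe sets were fitted with limma 3.58.1 in R 4.3.3 (lmFit and eBayes), arrays labelled IPMK cKO minus IPMK WT, with Benjamini-Hochberg adjustment over all of them and a threshold of 0.05. Each gene was read by its brightest probe set. The marker genes and the other gene lists were chosen with earlier results of these data known. Array values are given for the 3 genes of each group with the largest difference and for those with the widest span, and the others by range or difference. From the other lists, up to 2 genes with the lowest p could be named. Alternatives were other variance models, the local pooled error test that the methods name (rewritten here), a replicate block, further normalisation, filters on dim probe sets, the series matrix, other probe set choices, and leaving out each array. Tested on simulated data with 200 changed probe sets among the 33793, the fit recovered 13.3% of changes of 2-fold and 92% of changes of 4-fold. A mean of 4.2 unchanged probe sets passed per simulation. The simulated noise was independent between arrays, without shifts shared by arrays of the same replicate number. The number of arrays limits the precision.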

Additional observations from a re-analysis of the deposited data

How the results depend on the processing

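Over 15 alternative settings the 35 marker genes gave 520 differences, of which 466 kept their sign and 54 took the other sign. Of these 54, 46 were among the 140 with an array left out. With every array kept, 0 passed an adjusted p under 0.05. Many settings could not turn a sign. The variance models, the local pooled error test, the replicate block, the series matrix and the filters on dim probe sets leave each difference unchanged. The share that kept its sign is therefore no measure of stability. Over all probe sets, the count at an adjusted p under 0.05 was 0 and became 2 by the local pooled error test. The count at an unadjusted p under 0.05 was 966 in the limma fit, 386 by the local pooled error test, 541 and 123 over probe sets averaging at least 4 and 6 (log2), and 795 to 1539 with an array left out. Among the marker genes that count was 0, but 1 by the local pooled error test (Spink8), 1 with a mean of at least 4 (Tdo2) and 0 to 3 with an array left out.

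With the replicate number as a block in limma, 1502 probe sets had an unadjusted p under 0.05, and 0 of the 35 marker genes did. The labels do not say that a number marks a shared litter, although animals of the same number have neighbouring animal numbers, and the differences between replicates 1 and 2 correlated at 0.2441 between the groups over 33793 probe sets. The cause of these shifts was not tested. Leaving out an array also leaves the labels unequal in replicate number.

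With an array left out, the median log2 difference ranged from -0.1678 to 0.0390 for the dentate genes, -0.1501 to -0.0055 for CA1, -0.1058 to 0.0473 for CA2 and CA3, -0.1133 to 0.0800 for general excitatory genes and -0.2664 to 0.2294 for the ventral genes. It ranged from -0.0536 to -0.0141 for further dentate genes, 0.0078 to 0.0637 for further genes of CA2 and CA3, -0.0858 to 0.1797 for further excitatory genes, -0.0310 to 0.1297 for mossy cells, 0.0659 to 0.1185 for the subiculum, -0.0385 to 0.0870 for cortex, -0.0988 to 0.1024 for striatum, -0.1529 to 0.0102 for interneurons, -0.1041 to 0.0445 for endothelium and -0.0724 to 0.0315 for immature neurons. The last list, at -0.075 in all arrays, stood at -0.0546 after median centring, -0.0547 after renewed quantile normalisation and 0.0140 with a mean of at least 6. Ipmk stayed between 0.75 and 1.08.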

Other observations

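Of 140 genes on 19 other lists of cell types and brain regions, 0 had an unadjusted p under 0.05 in limma, 71 averaged higher and 69 lower in the arrays labelled IPMK cKO, and the median log2 difference was 0.0005. Choroid plexus genes, products of the secretory epithelium that lies against the hippocampus, were spread widely between the arrays. All 7 averaged lower in the arrays labelled IPMK cKO; the median difference was -0.37, and their median deviation was -0.54 and 0.14 in the arrays labelled IPMK cKO, against 0.35 and -0.017 in the arrays labelled IPMK WT. Aqp1, a water channel of that epithelium, read 6.13 and 6.67 in the arrays labelled IPMK cKO, against 7.04 and 6.55 in the arrays labelled IPMK WT. The median turned to 0.016 without replicate 1 labelled IPMK cKO, the array in which Spink8, Bok and Iyd were also lowest. Among the 35 marker genes that array was the lowest in 5 and the highest in 15. Over all probe sets it was the lowest in 25.3% and the highest in 27.0%.

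Of 9 interneuron genes, 3 averaged higher and 6 lower in the arrays labelled IPMK cKO, and the groups did not overlap in 1 that was higher (Gad1) and 2 that were lower (Pvalb and Lhx6), where 12.4% of all probe sets were higher and 14.8% lower without overlap. Gad1, the enzyme of GABA synthesis in interneurons, read 6.15 and 6.09 in the arrays labelled IPMK cKO, against 5.89 and 5.95 in the arrays labelled IPMK WT, a difference of 0.20 (standard error 0.12). Pvalb, the calcium buffer of fast-spiking interneurons, read 6.48 and 6.57 in the arrays labelled IPMK cKO, against 6.76 and 6.64 in the arrays labelled IPMK WT. Gad2, which encodes the other enzyme of GABA synthesis, had a difference of 0.035, and Slc32a1, the vesicular GABA transporter gene, one of -0.029. Of the 9 genes, 0 passed the test before adjustment.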
